A study of Homo sapiens with 8 samples.

Results

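The genes described here are 9 enzymes that modify and cross-link collagen, the collagen prolyl 4-hydroxylase alpha subunits *P4HA1*, *P4HA2* and *P4HA3*, the lysyl hydroxylases *PLOD1*, *PLOD2* and *PLOD3*, and the lysyl oxidases *LOX*, *LOXL1* and *LOXL2*. They were taken by symbol from the 23193 genes counted, by a rule that used no measured value but was set with earlier results of these data known. Nascent transcription was measured by PRO-seq, which labels the RNA of engaged polymerases in a brief nuclear run-on, in HCT116, an established human colorectal carcinoma cell line. Wild-type (WT) cells and HIF1A-/- cells, both given the vehicle DMSO, were kept in normoxia or exposed to hypoxia (1% O2) for 90 min, with 2 libraries in each of the 4 groups. In the HIF1A-/- line, exons of the *HIF1A* locus had been disrupted by homologous recombination, and the genes of the other HIF subunits were not targeted. The sources used here do not say whether the line is a single clone.

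Fibrillar collagen is hydroxylated in the endoplasmic reticulum before it is secreted. Prolyl 4-hydroxylase makes the hydroxyproline that stabilises the triple helix, and lysyl hydroxylases make the hydroxylysine that carries sugars and later forms cross-links. Both enzyme classes use molecular oxygen, iron and ascorbate, whereas lysyl oxidases are copper enzymes that oxidise lysine and hydroxylysine side chains outside the cell and so start the cross-links. HIF1A is the oxygen-labile subunit of a transcription factor whose DNA element has the core ACGTG or GCGTG, and several of the genes above are known HIF targets in other cells.

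The 250 bases before the authors' start site (GRCh37, read 5′ to 3′ on the gene's strand) are shown for *P4HA1*, *PLOD2* and *P4HA2*. *P4HA1* and *PLOD2* are the members whose gene bodies were called higher in WT hypoxia by the main fit below, without a replicate block. *P4HA2* is the one searched member in which ACGTG was found. Capitals mark ACGTG on either strand.
P4HA1 (chr10:74856733-74856982, minus strand): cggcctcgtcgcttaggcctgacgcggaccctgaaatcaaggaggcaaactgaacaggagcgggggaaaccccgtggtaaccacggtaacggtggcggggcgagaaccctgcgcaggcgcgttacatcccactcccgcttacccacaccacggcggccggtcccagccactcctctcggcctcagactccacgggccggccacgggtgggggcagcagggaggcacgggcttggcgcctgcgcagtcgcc
PLOD2 (chr3:145879283-145879532, minus strand): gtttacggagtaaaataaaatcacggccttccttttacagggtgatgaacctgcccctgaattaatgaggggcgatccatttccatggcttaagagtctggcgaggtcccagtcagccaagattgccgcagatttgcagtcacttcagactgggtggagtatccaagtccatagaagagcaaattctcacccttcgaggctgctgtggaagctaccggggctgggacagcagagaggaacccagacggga
P4HA2 (chr5:131563557-131563806, minus strand): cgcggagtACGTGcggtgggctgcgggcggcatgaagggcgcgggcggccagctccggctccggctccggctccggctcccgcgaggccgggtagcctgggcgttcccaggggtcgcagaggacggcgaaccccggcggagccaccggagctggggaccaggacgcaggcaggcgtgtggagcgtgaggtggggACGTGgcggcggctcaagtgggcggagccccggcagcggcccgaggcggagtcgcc

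The *P4HA2* window held 2 copies of ACGTG, which began 242 and 56 bases before the start, and 2 copies of GCGTG. *PLOD1* had 1 copy of GCGTG and no ACGTG, and neither was found in *P4HA1*, *PLOD2*, *PLOD3*, *LOX* or *LOXL1*. *P4HA3* and *LOXL2* were not searched. Of all 23193 windows of this length, 19.0% held ACGTG and 35.9% held GCGTG on either strand. These matches describe the letters of 1 short window and leave out any element farther away or inside the gene.

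Reads were counted by the authors in a TSS region of 551 bp and in a gene body that starts 1001 bp downstream, and are given here as counts per 1000000 reads (CPM) scaled by TMM, the between-library factor of edgeR. Each library held 18125234 to 23622392 reads in gene bodies and 2783581 to 5966348 near start sites. *HIF1A* itself had between 130 and 175 gene body CPM in all 8 libraries and was not called between the genotypes in normoxia (edgeR, log2 fold change 0.07, adjusted p = 0.991) or hypoxia (0.20, adjusted p = 0.591); polymerase over the whole gene body does not read the loss of exons. The summed gene body signal of 13 colorectal epithelial markers was 990 to 1445 CPM, against 34.3 to 50.5 CPM for 12 fibroblast markers. Of these, 11 epithelial and 7 fibroblast markers exceeded 0.5 CPM in at least 2 libraries. Among the fibroblast markers *COL1A2* and *POSTN* reached at most 0.0830 and 0.0415 CPM in any library, whereas *COL6A3* reached 3.71 CPM in HIF1A-/- hypoxia. Most of the summed fibroblast signal came from markers of the list that are not named here. Between the genotypes in normoxia the epithelial markers *KRT20* (log2 fold change 4.32, adjusted p = 0.0206) and *ELF3* (-2.21, adjusted p = 0.0935) were called higher and lower in HIF1A-/- cells by edgeR. In WT hypoxia edgeR called 0 genes of either marker list, with 2 epithelial genes and 0 fibroblast genes higher at an unadjusted p under 0.05. With the replicate number added to the fit as a block, the same counts were called higher, and DESeq2 called 1 epithelial gene higher. The paper counts *ELF3* among the HIF1A targets that were less expressed in HIF1A-/- cells already in normoxia. The part of such differences between the lines in the values below was not tested.

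To compare levels between genes, gene body CPM was divided by length. In WT normoxia the order was *PLOD1* at 4.95 ± 2.08 CPM per kb (SD, n = 2, as for all levels below), *PLOD3* at 3.36 ± 0.710, *LOXL1* at 1.63 ± 0.116, *P4HA2* at 1.53 ± 0.782, *P4HA1* at 1.39 ± 0.294, *LOXL2* at 0.467 ± 0.0263, *PLOD2* at 0.343 ± 0.0476 and *P4HA3* at 0.0558 ± 0.0168. The ranges of *PLOD1* and *PLOD3*, of *LOXL1* and *P4HA2*, and of *P4HA2* and *P4HA1* overlapped, and the other neighbours in this order did not. In WT hypoxia *PLOD1* stayed first at 10.0 ± 0.602 CPM per kb, *P4HA1* came second at 6.99 ± 1.14, and *PLOD2*, at 1.23 ± 0.0967, stood above *LOXL2*, at 0.887 ± 0.0777. In HIF1A-/- hypoxia *PLOD1* at 3.75 ± 0.367 and *PLOD3* at 2.43 ± 0.494 led, and *P4HA1* at 1.42 ± 0.00261 stood just below *LOXL1*.

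*LOX*, the founding lysyl oxidase and a widely studied hypoxia-inducible gene in other tumour cells, had 0 reads in both regions of all 8 libraries. A count of 0 allows a gene body level of up to 0.124 to 0.166 CPM, depending on the library, and a TSS level of up to 0.514 to 1.09 CPM, for counting error only. Of all 23193 genes, 6.71% had no read in either region of any library, and of the 7953 genes with a body within a factor of 2 of its length, 4.59%. *LOX* therefore did not pass the filter of 0.5 CPM in at least 2 libraries, and the other 8 members did in both regions.

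The first comparison asks which of these genes changed transcription within 90 min of hypoxia in WT cells. *P4HA1* and *PLOD2* were the members called higher by edgeR at an FDR of 10% over all genes tested, against a background of 0.431% of 16686 gene bodies called higher. Without a replicate block, edgeR called no gene body of any gene lower in this comparison, and 184 were lower at an unadjusted p under 0.05. With the replicate number as a block, 623 gene bodies were called higher and others were called lower. *P4HA1*, the main catalytic alpha subunit in most cells (chr10:74766974-74855731, minus strand, 3.25% exonic), had 142 and 105 gene body CPM in replicates 1 and 2 of WT normoxia and 549 and 692 in WT hypoxia. Both hypoxic libraries lay far above both normoxic ones (log2 fold change 2.33 ± 0.20 (SE), edgeR adjusted p = 0.00633), and the gene ranked 6th of 16686 by p. In these bulk libraries, more cells transcribing a gene and more transcription per cell cannot be told apart.

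*PLOD2*, the enzyme that hydroxylates lysines in the collagen telopeptides (chr3:145787226-145878281, minus strand, 14.3% exonic), had 28.2 and 34.3 CPM in WT normoxia and 106 and 118 in WT hypoxia. The groups did not overlap (log2 fold change 1.84 ± 0.26, edgeR adjusted p = 0.0459). With the replicate number as a block, which the check of pairing allows, the adjusted p fell to 0.000435 for *P4HA1* and 0.000464 for *PLOD2*. Leaving out WT normoxia replicate 1 or 2 raised the adjusted p of *P4HA1* to 0.116 and 0.155, and *PLOD2* missed the threshold without any 1 of the 4 WT libraries, at adjusted p values between 0.136 and 0.649. Neither log2 fold change left the range of 1.71 to 2.56 in any of these fits.

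*PLOD1*, which hydroxylates lysines of the triple helix (chr1:11995724-12035599, plus strand), had 256 and 139 CPM in WT normoxia and 416 and 382 in WT hypoxia. *LOXL2*, an oxidase of basement membrane collagen (chr8:23154409-23260721, minus strand), had 51.6 and 47.7 CPM in WT normoxia and 88.5 and 100.2 in WT hypoxia. Each gene's hypoxic libraries were above its normoxic ones, with log2 fold changes of 1.01 ± 0.27 for *PLOD1* and 0.93 ± 0.22 for *LOXL2*, but edgeR did not call them without the block (adjusted p = 0.521 and 0.399). With the replicate block both were called (adjusted p = 0.0187 and 0.0275), which brought the members called higher from 2 to 4 of the 8 tested, beside a background of 3.73% of gene bodies in that fit.

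The other members were not called in either fit. *P4HA2*, the second broadly expressed alpha subunit, had 71.2 and 33.3 CPM in WT normoxia and 85.8 and 76.1 in WT hypoxia (log2 fold change 0.63 ± 0.32, adjusted p = 0.897 by edgeR). Its normoxic replicates differed more from each other than the lower hypoxic one did from the higher normoxic one. *PLOD3*, a lysyl hydroxylase that also transfers sugars to hydroxylysine, had 41.5 and 30.7 CPM in normoxia and 30.2 and 24.9 in hypoxia (log2 fold change -0.39 ± 0.28, adjusted p = 0.897 by edgeR). *LOXL1*, which acts mainly on elastin, had 38.1 and 42.2 CPM in normoxia and 39.6 and 31.3 in hypoxia, with groups that overlapped (log2 fold change -0.18 ± 0.18). *P4HA3* stayed low, at 1.93 and 2.98 CPM in normoxia and 3.17 and 3.11 in hypoxia (log2 fold change 0.36 ± 0.49). In 6 of the 8 tested members both hypoxic libraries lay above both normoxic ones, as 18.3% of all gene bodies tested did, and in 1, *PLOD3*, both lay below, as 19.4% did. The median log2 fold change of the 8 was 0.78, against -0.02 for all gene bodies.

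**Figure D1:**
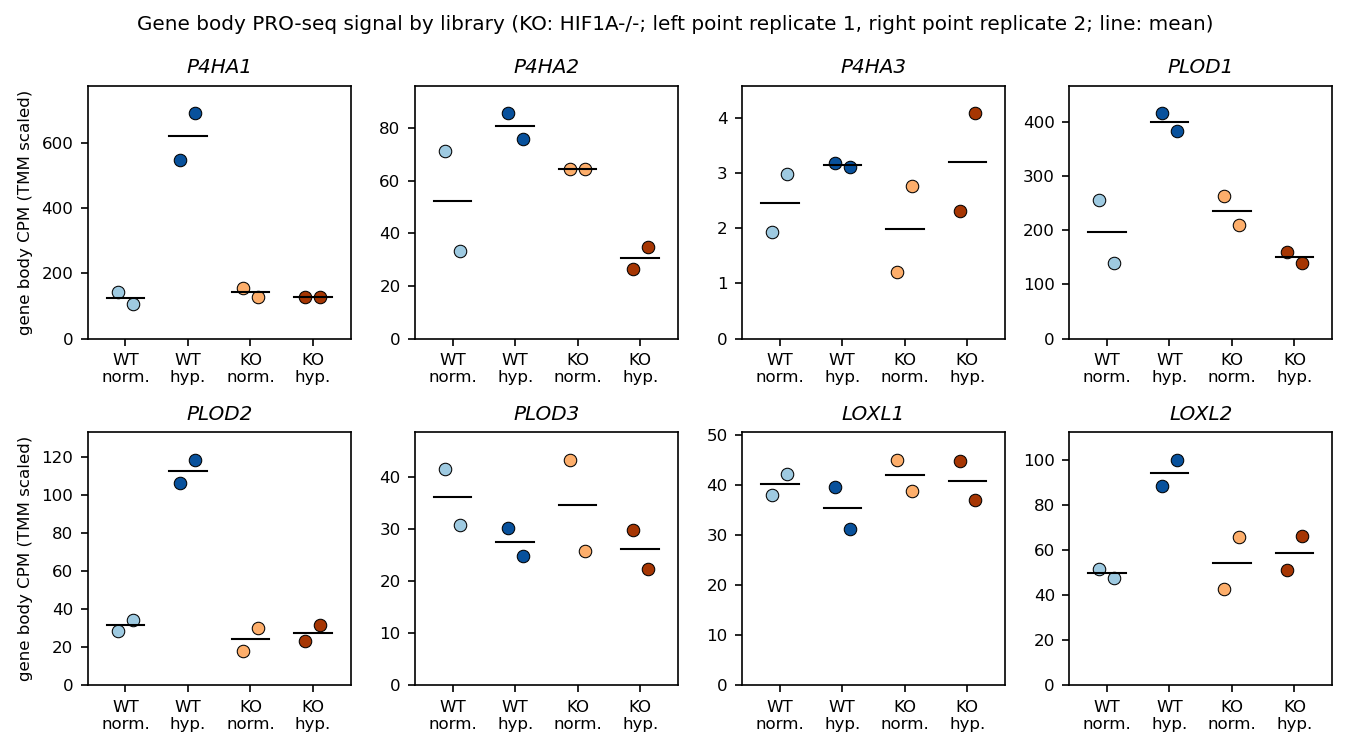
Gene body PRO-seq signal in TMM-scaled CPM (linear axes from 0, a scale of its own for each gene) of the 8 members with reads, with a point per library and a line at the mean of the 2 libraries in each genotype and oxygen group. *P4HA1* and *PLOD2* stood apart in WT hypoxia, at 549 and 692 and at 106 and 118 CPM, from all other libraries. The WT hypoxia libraries also lay above all others for *PLOD1* (416 and 382 against at most 263), *LOXL2* (88.5 and 100.2 against at most 66.3) and *P4HA2* (85.8 and 76.1 against at most 71.2). *PLOD3* and *LOXL1* showed no such step.

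The same exposure was then compared in HIF1A-/- cells, where edgeR called none of the members and none of all 16686 gene bodies (0.0%), although 175 were higher and 172 lower at an unadjusted p under 0.05, 2 members among them. With the replicate block 0.036% of gene bodies were called, again with no member. *P4HA1* had 156 and 127 CPM in HIF1A-/- normoxia and 126 in both hypoxic libraries (log2 fold change -0.17 ± 0.19). *PLOD2* had 18.1 and 29.8 CPM in normoxia and 23.2 and 31.7 in hypoxia (0.20 ± 0.26), and *LOXL2* had 42.6 and 65.6 in normoxia and 50.9 and 66.3 in hypoxia (0.11 ± 0.22). For these last 2 genes the groups overlapped.

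The members below an unadjusted p of 0.05 in HIF1A-/- cells were lower in hypoxia. *P4HA2* had 64.5 and 64.7 CPM in normoxia and 26.4 and 34.9 in hypoxia (log2 fold change -1.07 ± 0.32, edgeR adjusted p = 1), and ranked 43rd of 16686 by p. *PLOD1* had 263 and 208 CPM in normoxia and 160 and 139 in hypoxia (-0.66 ± 0.27, edgeR adjusted p = 1). Both hypoxic libraries were below both normoxic ones for *P4HA2*, *PLOD1* and *P4HA1*, 3 of the 8 members tested, as in 11.3% of all gene bodies. With the replicate block the adjusted p was 0.292 for *P4HA2* and 0.274 for *PLOD1*, and DESeq2 with the block called *PLOD1* (adjusted p = 0.0304).

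**Figure D2:**
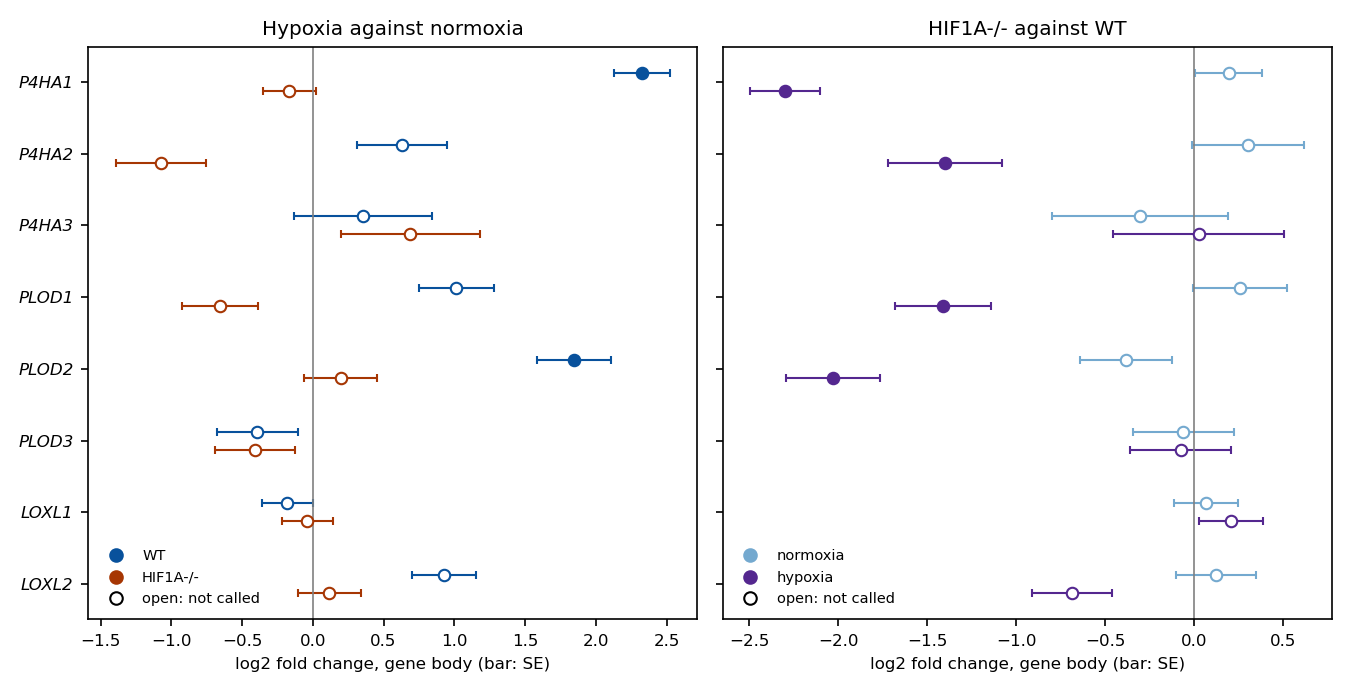
Log2 fold change of gene body signal (points, with bars of 1 SE from edgeR) of the 8 members for hypoxia against normoxia in each genotype (left) and for HIF1A-/- cells relative to WT under either oxygen condition (right), with filled points called at an FDR of 10%. *P4HA1* (2.33) and *PLOD2* (1.84) were called in WT cells, none in HIF1A-/- cells, and *P4HA1*, *P4HA2*, *PLOD1* and *PLOD2* were called lower in HIF1A-/- cells in hypoxia.

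Whether the response differed between the genotypes was tested directly by the interaction term. For *P4HA1* the log2 fold change in WT cells exceeded that in HIF1A-/- cells by 2.49 ± 0.27 (edgeR adjusted p = 0.0616), and it was the member called, where 0.0539% of gene bodies had a called interaction in this direction. That call was lost without any 1 of the WT or HIF1A-/- hypoxia libraries, at adjusted p values from 0.116 to 0.487, while the difference stayed between 2.29 and 2.73. The difference was 1.70 ± 0.45 for *P4HA2*, 1.67 ± 0.38 for *PLOD1*, 1.65 ± 0.36 for *PLOD2* and 0.81 ± 0.32 for *LOXL2*, none called (edgeR adjusted p from 0.638 to 1.00). With the replicate block *PLOD1* (adjusted p = 0.0283) and *PLOD2* (0.0168) were called with *P4HA1* (0.00521), 3 members against 0.384% of gene bodies. For *P4HA2* and *PLOD1* the difference joined a higher value in WT cells with a lower one in HIF1A-/- cells. For *PLOD2* the change was 1.84 in WT and 0.20 in HIF1A-/- cells.

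The genotypes were also compared at each oxygen level, with the same libraries as above. In normoxia edgeR called no member with or without the block, 0 of 8 at an unadjusted p under 0.05, where 0.725% of all gene bodies were above WT and 1.05% below it in the calls without the block and 10.3% were called in either direction with it. The log2 fold changes ran from -0.38 ± 0.26 for *PLOD2* to 0.30 ± 0.31 for *P4HA2*. In hypoxia 4 members were lower in HIF1A-/- than in WT cells, beside 2.79% of gene bodies called lower. These were *P4HA1* (log2 fold change -2.30 ± 0.20, adjusted p = 0.00141), *PLOD2* (-2.03 ± 0.26, adjusted p = 0.00896), *PLOD1* (-1.41 ± 0.27, adjusted p = 0.0389) and *P4HA2* (-1.40 ± 0.32, adjusted p = 0.0745), all by edgeR.

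Leaving out any 1 of the 4 hypoxic libraries kept *P4HA1* and *PLOD2* called and lost *PLOD1* (adjusted p 0.142 to 0.194) and *P4HA2* (0.142 to 0.393). *LOXL2* was lower by a log2 fold change of -0.69 ± 0.22 (edgeR adjusted p = 0.192) and passed the threshold once the block was fitted (adjusted p = 0.0191), where 15.1% of gene bodies were called lower. Both HIF1A-/- libraries lay below both WT libraries for these 5 genes, as in 24.6% of gene bodies.

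The make-up of each family, over its members described here, was read from gene body density. Of the summed density of the alpha subunits, *P4HA1* held 43.0% and 53.3% in WT normoxia and 70.6% and 77.3% in WT hypoxia, while *P4HA2* went from 55.8% and 43.7% to 28.6% and 22.0%. In HIF1A-/- cells the *P4HA1* share went from 47.9% and 42.4% to 63.2% and 56.1%, with *P4HA2* lower and *P4HA1* nearly level. The *P4HA1* share was thus above its normoxic values in both hypoxic groups, through different members.

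The summed density itself was 3.73 and 2.23 CPM per kb in normoxic WT libraries and 8.76 and 10.1 in hypoxic ones. HIF1A-/- cells had 3.66 and 3.39 before and 2.24 and 2.53 during hypoxia. The alpha subunits assemble with P4HB, protein disulfide isomerase, which is made in excess for other tasks. *P4HB* gene body signal was 258 to 335 CPM in WT normoxia and 265 to 364 in WT hypoxia (log2 fold change 0.08 ± 0.25, edgeR adjusted p = 0.947). Relative to *P4HB*, the alpha density of WT cells went from 18.3% and 14.2% to 39.8% and 62.8% with hypoxia. That of HIF1A-/- cells went from 16.6% and 20.1% to 10.8% and 17.7%. The WT hypoxia ratios lay above all others, and the 2 differed widely.

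Among the lysyl hydroxylases *PLOD1* was the largest share in all 8 libraries, with 51.8% to 72.6%. *PLOD2* held 2.93% and 5.62% in WT normoxia and 8.08% and 9.87% in WT hypoxia, against 1.83% to 5.89% over the HIF1A-/- libraries, and *PLOD3* went from 36.5% and 42.5% to 19.5% and 17.5% in WT cells. Of *LOX*, *LOXL1* and *LOXL2*, the latter 2 made up all of the signal, and *LOXL2* went from 23.9% and 20.8% to 34.1% and 42.6% with hypoxia in WT cells, against 18.0% to 29.3% over the HIF1A-/- libraries. The sum of these lysyl oxidases stayed between 2.03 and 2.44 CPM per kb in all libraries. It leaves out *LOXL3* and *LOXL4*, which were counted in the list of collagen maturation genes and had group means of 30.9 to 37.8 and 8.61 to 13.2 gene body CPM.

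**Figure D3:**
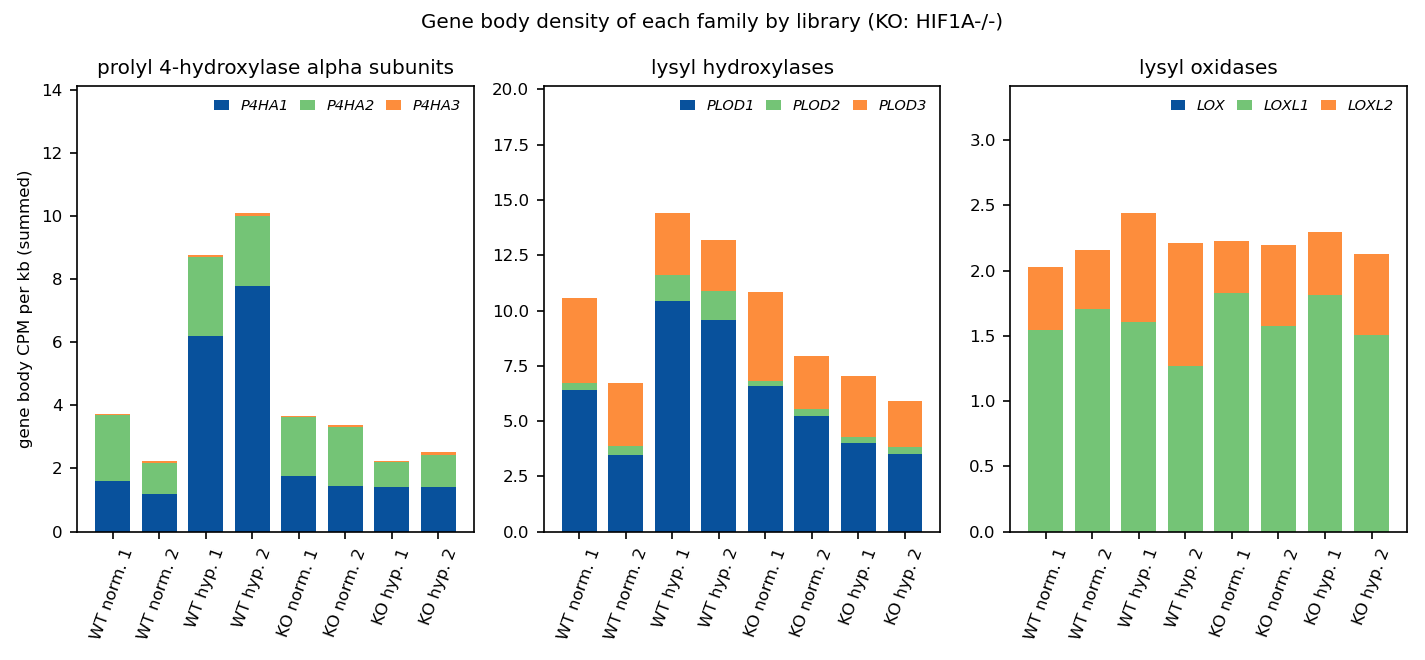
Gene body density in TMM-scaled CPM per kb, stacked by gene, of the alpha subunits, lysyl hydroxylases and lysyl oxidases in each of the 8 libraries. The alpha subunit sum reached 8.76 and 10.1 in WT hypoxia against 2.23 to 3.73 in the other groups, whereas the lysyl oxidase sum stayed within 2.03 to 2.44, and *LOX* was at 0.

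Polymerase near the start site was compared next. TSS signal of *P4HA1* was 239 and 231 CPM in WT normoxia and 309 and 360 in WT hypoxia, a log2 fold change of 0.51 ± 0.16. *PLOD2* had 26.0 and 18.8 TSS CPM in WT normoxia and 39.3 and 31.0 in hypoxia (0.64 ± 0.32), and *LOXL2* had 65.7 and 65.5 against 83.2 and 91.8 (0.42 ± 0.26). The *PLOD3* TSS had 48.2 and 51.4 CPM in WT normoxia and 54.6 and 58.3 in hypoxia (0.18 ± 0.20), while its gene body signal was lower in hypoxia. In these 4 members the hypoxic libraries were above the normoxic ones, as in 17.2% of TSS regions. Yet edgeR called no member (adjusted p = 0.922 for each of the 4), where 0.046% of 15212 TSS regions were called higher. *P4HA1* was the member with an unadjusted p under 0.05. With the replicate block *P4HA1* was called (adjusted p = 0.0846), beside 0.789% of TSS regions.

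No member TSS was called by edgeR in HIF1A-/- cells, where 0.0% of TSS regions were called and 0.00657% with the block, and 0 members had an unadjusted p under 0.05. Nor was any called for the interaction, at 0.00657% of TSS regions and 0.046% with the block, and 1 member had an unadjusted p under 0.05. In hypoxia the *PLOD2* TSS had 14.3 and 15.9 CPM in HIF1A-/- cells, below the 39.3 and 31.0 in WT cells (log2 fold change -1.22 ± 0.33, edgeR adjusted p = 0.155), and the *LOXL2* TSS had 45.8 and 71.8 (-0.57 ± 0.26, adjusted p = 0.367). All 8 tested members were lower in HIF1A-/- cells (median log2 fold change -0.40, against -0.01 for all TSS regions), and both HIF1A-/- libraries lay below both WT ones in 7, all but *LOXL1*, as in 24.2% of TSS regions. None was called, where 0.664% of TSS regions were called lower, and 1 member had an unadjusted p under 0.05. *PLOD2* and *LOXL2* were called with the replicate block, at adjusted p values of 0.00752 and 0.0421, in a fit that called 6.97% of TSS regions lower.

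In normoxia the *LOXL2* TSS groups overlapped (log2 fold change -0.15 ± 0.26), while some other members lay to one side of WT without being called. The *PLOD2* TSS had 9.05 and 17.2 CPM in normoxic HIF1A-/- cells, below the 26.0 and 18.8 in WT cells (log2 fold change -0.74 ± 0.34, edgeR adjusted p = 0.620). That difference was -1.52 between the replicates numbered 1, with 25 reads in the HIF1A-/- library, and -0.13 between those numbered 2. *P4HA3* (-0.90 ± 0.47) and *PLOD3* (-0.17 ± 0.20) also lay below WT without overlap, 3 members as in 17.3% of TSS regions. *P4HA1* lay above it, at 331 and 259 against 239 and 231 CPM (0.33 ± 0.16, edgeR adjusted p = 0.629), as 17.4% of TSS regions did. No member TSS was called in normoxia by edgeR or DESeq2, 0 had an unadjusted p under 0.05, and 0.657% of TSS regions were called in either direction without the block and 4.29% with it.

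The pausing index is the density of TSS reads over that of gene body reads in one library. For *P4HA1* it was 271 and 354 in normoxic and 90.6 and 83.9 in hypoxic WT cells. In HIF1A-/- cells it was 343 and 328 without and 392 and 355 with hypoxia, while the median over 14494 genes stayed between 44.1 and 47.6 in all libraries. The *P4HA1* index thus dropped in WT hypoxia to less than its level in any other library. In the edgeR fit of both regions its log2 fold change was -1.83 ± 0.23 (adjusted p = 0.00150), and it was the member called, where 0.186% of genes were called lower. The interaction was also called (-1.98 ± 0.33, adjusted p = 0.0704), where 0.0207% of genes were, and was called in 6 of the 13 alternative fits, of those with a library left out only without HIF1A-/- normoxia replicate 2.

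*PLOD1* had a pausing index of 41.7 and 52.2 in WT normoxia and 21.4 and 21.5 in WT hypoxia (log2 fold change -1.12 ± 0.24, edgeR adjusted p = 0.122), while its TSS signal did not separate the groups. *PLOD2* had 152 and 90.5 in WT normoxia and 61.3 and 43.3 in WT hypoxia (-1.21 ± 0.29, adjusted p = 0.267). Neither was called, and *PLOD1* was called in 5 of the 13 alternative fits. The index was higher in WT hypoxia for 2 members, neither called. These were *PLOD3*, at 22.7 and 32.7 against 35.3 and 45.7 (0.57 ± 0.31), and *LOXL1* (0.30 ± 0.27). An unadjusted p under 0.05 was reached by 5 members, all lower, where 454 of 14494 genes were lower and 299 higher at that level. Between the genotypes in hypoxia the index was higher in HIF1A-/- cells for *P4HA1* (2.10 ± 0.23, edgeR adjusted p = 0.000287) and *PLOD1* (1.09 ± 0.24, adjusted p = 0.0654), beside 0.469% of genes called higher. With the block in place of library terms *PLOD1* had an adjusted p of 0.103, and without any 1 of the 4 hypoxic libraries 0.226 to 0.509. The *P4HA2* index was 0.93 ± 0.24 higher on the log2 scale (edgeR adjusted p = 0.128) and was called in 3 of the 13 alternative fits.

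**Figure D4:**
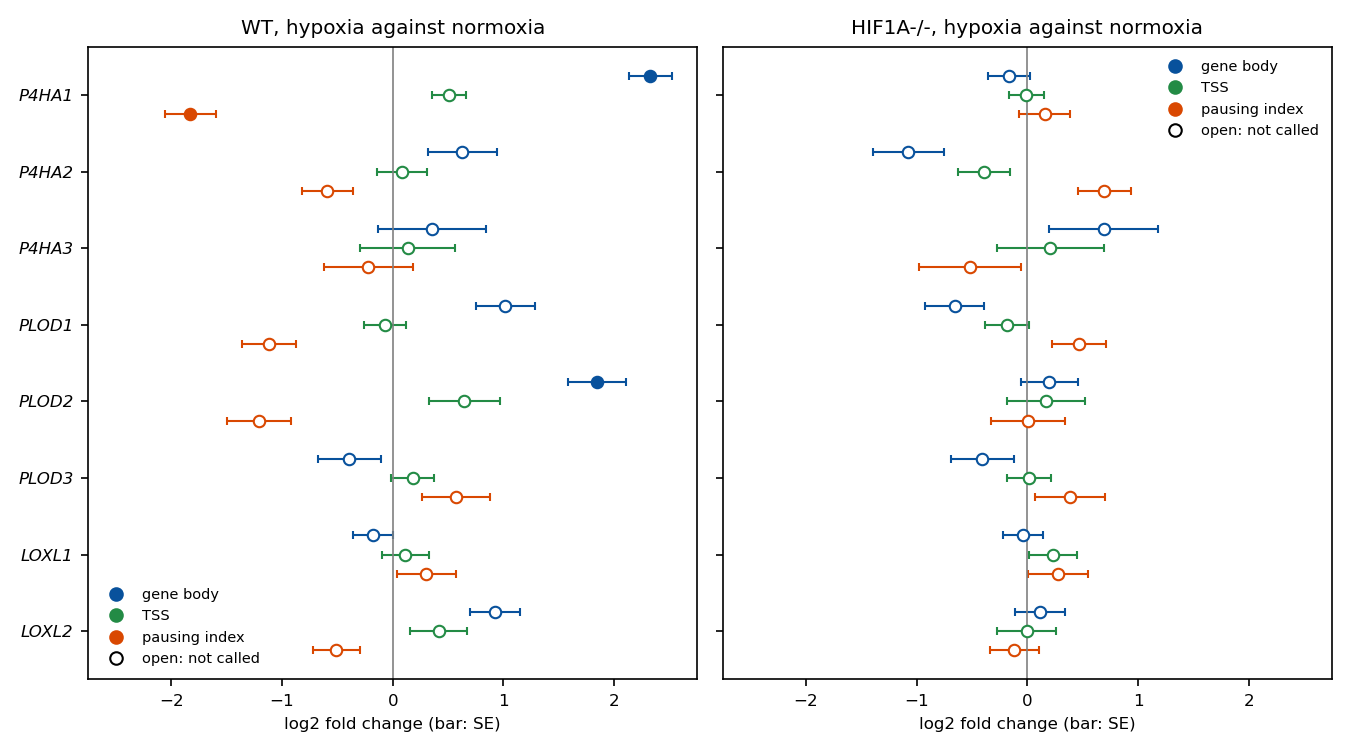
Log2 fold change in hypoxia against normoxia (points, with bars of 1 SE from edgeR) of gene body signal, TSS signal and pausing index of the 8 members, in WT (left) and HIF1A-/- cells (right), with filled points called at an FDR of 10%. For *P4HA1* in WT cells the gene body value of 2.33 stood far above the TSS value of 0.51, and the pausing index was at -1.83.

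The other genes of collagen production were taken from lists. Of 32 genes of collagen maturation (chaperones, glycosyltransferases, propeptidases and export factors), 29 were tested and edgeR called 0 in WT hypoxia, with 1 higher and 0 lower at an unadjusted p under 0.05 and 0 called by DESeq2. Their median log2 fold change was -0.03, against -0.02 for all gene bodies. With the block 1 was higher and 2 were lower, *EFEMP2* (0.88), *PPIB* (-0.56) and *PDIA3* (-0.41), named here after their values were seen. Of 45 collagen chains and elastin, 37 were tested and edgeR called 0 in WT hypoxia (median 0.20), with 1 higher and 1 lower at an unadjusted p under 0.05 and 0 called by DESeq2. With the block 2 were higher, *COL13A1* (0.61, adjusted p = 0.0421) and *COL5A3* (1.35, adjusted p = 0.0686), the latter also named after its values were seen.

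Of 6 genes that supply ascorbate, copper or zinc, edgeR called 0 in WT hypoxia, 2 were higher at an unadjusted p under 0.05 and DESeq2 called 1. With the block 2 were higher, the copper transporters *SLC31A1* (log2 fold change 0.66, adjusted p = 0.0322) and *ATP7A* (0.77, adjusted p = 0.0547), the latter of which loads copper into secreted cuproenzymes. *SLC31A1* was also lower in HIF1A-/- than in WT cells in hypoxia without the block (-0.79 ± 0.15, edgeR adjusted p = 0.0380). In HIF1A-/- cells and for the interaction 0 genes of these 3 lists were called by DESeq2 or by edgeR with or without the block, and an unadjusted p under 0.05 was reached by 0 of them in HIF1A-/- cells and by 1, of the cofactor genes, for the interaction.

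Between the genotypes in hypoxia the lists held 2 further genes called higher in HIF1A-/- cells by edgeR, beside 1.47% of all gene bodies, the procollagen peptidase *ADAMTS14* (log2 fold change 0.98 ± 0.19, adjusted p = 0.0396) and the collagen VI chain *COL6A3* (2.60 ± 0.52, adjusted p = 0.0459). *COL6A3* was near the floor in WT cells, at 0.149 and 0.442 CPM in normoxia and 0.423 and 0.664 in hypoxia. It had 1.48 and 2.12 CPM in normoxic and 3.01 and 3.71 in hypoxic HIF1A-/- cells. It passed the filter of 0.5 CPM in at least 2 libraries only through HIF1A-/- libraries, so its call is no separate support. The transmembrane collagen *COL13A1* was lower (-1.55 ± 0.26, edgeR adjusted p = 0.0241). These 3 differences were 0.82, 2.61 and -1.05 in normoxia, where edgeR called them with the block only, and none had a called interaction. With the block the lists of collagen maturation and of collagen chains held 3 of 29 and 5 of 37 tested genes called higher and 5 and 8 called lower in HIF1A-/- cells in hypoxia, in a fit that called 13.1% of all gene bodies higher and 15.1% lower.

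Genes counted within 5 kb of the members were examined because their reads could enter the members' values. None lay within that distance of *P4HA1*, *PLOD2* or *LOX*. *MFN2*, downstream of *PLOD1* on the same strand, had a log2 fold change of -0.02 in WT hypoxia, against 1.01 for *PLOD1*. Inside *LOXL2*, on the opposite strand, the unnamed transcript LOC100507156 had 3.72 and 4.75 CPM in WT normoxia and 9.99 and 11.7 in WT hypoxia (log2 fold change 1.36 ± 0.32, edgeR adjusted p = 0.342, and 0.0233 with the block). *LOXL1-AS1*, opposite *LOXL1* with 1892 bp of overlap, had 32.5 to 41.9 CPM, against 31.3 to 45.1 for *LOXL1*. Its log2 fold change in WT hypoxia was -0.14 ± 0.17, against -0.18 ± 0.18 for *LOXL1*. *ZNHIT1*, opposite *PLOD3* with 128 bp of overlap, changed by 0.01 ± 0.19. *MOGAT3*, 4905 bp from *PLOD3* on the same strand, had at most 3 reads in any library. *R3HCC1*, 617 bp from *LOXL2* on the opposite strand, had 12.6 to 19.6 CPM over the 8 libraries. Its log2 fold change in WT hypoxia was -0.31 ± 0.20. Antisense transcripts overlapping *P4HA2* and *P4HA3* had at most 3 reads in any library. The libraries are labelled strand-specific, but the strand setting of the counting is not given in the sources used here. The part of one gene in the other's counts was not tested for any of these pairs.

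Across the 8 libraries, the gene bodies most like *P4HA1* in log2 CPM, of 13020 with a mean of at least 5 CPM, were *ENO2* (Pearson r = 0.994), *ALDOC* (0.992) and *BNIP3* (0.992). Those most like *PLOD2* were *DDIT4* (0.986), LOC101929705 (0.986) and *PDK1* (0.985). *ENO2* rose in the means from 16.6 to 53.8 CPM in WT cells and had 18.7 and 18.0 CPM in normoxic and hypoxic HIF1A-/- cells. *PDK1* went from 35.5 to 230.2 CPM in WT cells and had 22.9 and 28.2 CPM in HIF1A-/- cells. Between the members themselves r was 0.911 for *P4HA1* and *PLOD2* and 0.915 for *PLOD2* and *LOXL2*. These coefficients describe 8 libraries in 4 groups that share the same WT hypoxia step, and carry no p.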

How the data were processed

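PRO-seq libraries of 8 HCT116 cultures were grouped by the labels. The deposited values are raw read counts per gene. The authors obtained them by featureCounts (Subread 1.6.2) after Hisat2 2.1.0 alignment to GRCh37 and a mapping quality filter, as in the methods and the submitters' processing notes. Each gene has 1 TSS region of 551 bp and the shortest gene body from 1001 bp, so other start sites are not seen, and counts from PCR copies are not independent.

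Genes above 0.5 CPM in at least 2 libraries were tested (16686 gene bodies and 15212 TSS regions) with edgeR 4.0.16 (TMM, glmQLFit, glmQLFTest) in R 4.3.3, in 1 fit of the 4 group means, with Benjamini-Hochberg adjustment over all genes and an FDR of 10%. The pausing index fit (14494 genes) used both regions of each library with a term per library. The methods describe biological duplicates, and with 2 libraries per group p-values rest on the spread between these libraries. Same-numbered libraries deviated together in all pairs of groups (r = 0.484 to 0.790 for gene bodies, 0.216 to 0.519 for TSS), so the numbers in the labels were taken as pairs, and the fit with the replicate block is given where it changes a call. The alternatives were DESeq2 1.42.0, other size factors, library totals, other filters, only the groups compared, the block, and each library left out. Scripts were tested on simulated counts.

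The members, although taken by symbol alone, and the lists were chosen with earlier results of these data known. Named genes are the members, *HIF1A*, *P4HB*, listed genes called in any gene body comparison (without the block, groups not overlapping), neighbours within 5 kb, and the 3 genes most like each member called in WT hypoxia. Outside that rule, and after their values were seen, the text names *LOXL3*, *LOXL4*, 2 fibroblast markers near 0, and the listed genes called with the block in WT hypoxia. Windows before start sites were read from GRCh37 with pysam 0.24.0, and exonic shares use the GENCODE annotation for that build.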

Additional observations from a re-analysis of the deposited data

Results flagged for a closer look

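For *P4HA1* the response to hypoxia differed between WT and HIF1A-/- cells by the test of that difference itself. The gene body log2 fold change was higher in WT cells by 2.49 (edgeR adjusted p = 0.0616), and was 2.26 between the replicates numbered 1 and 2.73 between those numbered 2. The pausing index log2 fold change was lower in WT cells by a difference of -1.98 (edgeR adjusted p = 0.0704). Both rest on the same gene body counts. The cause was not tested.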

How the results depend on the processing

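In WT hypoxia the members called at gene bodies numbered 2, and 4 with the replicate block, with DESeq2 and with DESeq2 and the block (0 to 2 with a library left out), where gene bodies called among all genes went from 72 to 919, 175 and 1028. In HIF1A-/- hypoxia 0 became 1 with DESeq2 and the block. The gene body interaction went from 1 to 3 with the block, 4 with DESeq2 and 3 with both (0 to 1 with a library left out), and HIF1A-/- against WT in hypoxia from 4 to between 2 and 5 with a library left out. TSS members called went from 0 to 1 in WT hypoxia with the block, and in HIF1A-/- against WT in hypoxia from 0 to 2 with the block and 1 with DESeq2, DESeq2 and the block, no filter, or only the groups compared (0 to 1 with a library left out). The pausing index went in WT hypoxia from 1 to 2 with library totals, 3 with no filter and 2 with the stricter filter (1 to 2 with a library left out), for the interaction from 1 to 2 with no filter (0 to 2 with a library left out), and between genotypes in hypoxia from 2 to 1 with the block in place of library terms (1 to 3 with a library left out, 3 with *P4HA2* added without either HIF1A-/- normoxia library). With a library left out, log2 fold changes changed sign for *PLOD2* (-0.13 to 0.62) and *LOXL2* (-0.17 to 0.48) in HIF1A-/- hypoxia and for *P4HA2* between the genotypes in normoxia (-0.13 to 0.95). With the replicate block the sign turned for the *P4HA3* gene body between the genotypes in hypoxia (0.03 to -0.02). With the block in place of library terms it turned for the *PLOD2* pausing index in HIF1A-/- hypoxia (0.01 to -0.04). In the main fit each of these log2 fold changes was smaller than its SE, while the highest values with a library left out exceeded that SE. The cause of these differences was not tested. The low depth of *P4HA3* (1.20 to 4.08 gene body CPM) and the 0 counts of *LOX* limit what can be seen of those genes.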
